A study of Mus musculus with 6 samples.

Results

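Imprinted genes are genes of which mainly 1 parental copy is active, and 40 such mouse genes were followed here in germ-like cells made from embryonic stem cells. The members were chosen by name: a probe counted when the array's own annotation, or the older symbol Gtl2 in the case of Meg3, named one of the 40 genes and the probe stood well above its local background on at least 2 of the 6 arrays. All 40 genes were on the array and all 40 passed, with 72 of their 82 probes, among 20220 genes that passed in the whole series; 37 members stood well above background on all 6 arrays. Of the 40, 21 are known to be expressed from the paternal copy, 18 from the maternal copy, and Gnas from both, depending on the transcript. Some are imprinted mainly in placenta, brain or 1 transcript. These are Inpp5f and Ddc on the paternal side. On the maternal side they are Ube3a, Nap1l4, Cd81, Tssc4, Osbpl5, Gatm, Ppp1r9a and Calcr. The array measures the summed RNA of both copies, so it shows how much RNA a gene makes and not which copy makes it.

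Each of the 6 samples was total RNA of 1 population of male mouse cells on a mixed C57BL/6 129SV background, carrying an Oct4-GFP reporter transgene and a vector with the red marker tdTomato, differentiated for 12 or 9 days after feeder cells had been depleted, and sorted as positive for both colours. Knockdown cells carried 1 of 2 short hairpin RNAs against Dazl, an RNA-binding protein needed for germ cell development; control cells carried the control vector. Each hairpin and the control vector gave 1 array at day 12 and 1 at day 9, so 4 knockdown arrays stood against 2 control arrays. The reporter is read out by an Oct4-driven transgene, which is also active in undifferentiated stem cells, and separate cultures are not stated in the labels, which means that p-values cover the spread among these 6 samples and nothing more.

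In the germ line, imprints are erased in primordial germ cells and laid down again later according to the sex of the embryo. In the offspring, DNA methylation on 1 parental copy of an imprinting control region then sets which copy of its genes is active. The members sit mostly in clusters. On chromosome 7 lie the Igf2 and H19 pair, the Kcnq1 cluster, the Snrpn cluster and the Peg3 cluster; on chromosome 12 lie Dlk1 and Meg3; on chromosome 6 lies the Peg10 cluster; and on chromosome 11 lie Grb10 and Ddc. Many paternally expressed members, such as the growth factor Igf2, promote growth, and many maternally expressed members, such as the cell cycle inhibitor Cdkn1c, restrain it.

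Dazl itself, the targeted gene, stood at 3.54% to 8.28% of the control of the same day on the 4 knockdown arrays. Arrays correlated with each other at r of 0.982 to 0.994 across genes, and between 70.3% and 73.3% of probes stood well above background. Of 13 markers of germ cells and Oct4-reporter cells, 12 passed the filter and Prdm14 did not. Their summed level, in units of the array's 75th percentile, was 729.9 with hairpin 2 and 676.7 with hairpin 1 at day 12, against 571.7 in control cells, and 682.8 and 792.1 at day 9, against 750.2 in control cells. This sum was mostly that of Dppa5a, at log2 levels of 8.96 to 9.48, where every other marker stood at 4.42 or lower. Such sums follow their brightest genes and do not stand for all markers of a list. In the knockdown comparison 5 of the 12 had an upward and 7 a downward fitted difference, with a median of -0.07 on the log2 scale. Pou5f1, the gene of the Oct4 protein, had the largest upward difference, 0.70, in 4 of 4 pairs, with an adjusted p of 0.275 in limma. Dppa3 had the largest downward one, -0.62, with all 4 pairs below 0. Markers of other cells were also present. All 13 fibroblast markers passed, and their summed level was 14.5 to 19.4 times the array's 75th percentile on the knockdown arrays, against 12.5 to 15.6 on the control arrays. Of 11 endoderm markers 10 passed and Ttr did not; their summed level was 2.27 to 3.54 on the knockdown arrays, against 1.57 and 1.78 on the control arrays. Of 6 neural markers 5 passed and Neurod1 did not, at 3.59 to 4.26 summed on the knockdown arrays and 2.26 and 2.52 on the control arrays. The 8 trophectoderm markers summed to 176 and 148 with hairpin 2 and to 257 and 284.5 with hairpin 1, against 170 and 197 in control cells, day 12 before day 9. Nearly all of this sum came from the keratin genes Krt18 and Krt8, at log2 levels of 6.68 to 7.64 and 5.46 to 6.37. In the knockdown comparison 13 of 13 fibroblast markers and 9 of 10 endoderm markers had an upward fitted difference. So did 6 of 8 trophectoderm and 3 of 5 neural markers, and none in these lists passed the adjusted threshold. Stmn2 had the largest upward difference of the neural markers, while Map2 and Pax6 were downward. The higher neural sum therefore does not stand for the whole list. Over all genes, 10062 of 20220 were upward. Some of these markers were near 0 or split between pairs: Acta2 was at 0.09, and Pdgfra, at 0.11, and Cubn, at 0.62, were higher in 2 of 4 pairs. The part of these markers in the values below was not tested, and in sorted populations fewer cells of a type and less RNA per cell cannot be told apart.

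Start sites of 4 members that the results turn on are shown first: Dlk1 and Meg3, whose fitted knockdown differences were upward, Phlda2, whose fitted differences were downward for knockdown and for day, and Asb4, which differed most between the hairpins; none of these differences passed the adjusted threshold. Each window runs from 250 bases before to 50 bases after the gene's first listed start in RefSeq on GRCm38.p6, in the gene's own direction. Capitals mark CG, the dinucleotide that DNA methylation acts on. The windows are chr12:109452573-109452872 on the plus strand for Dlk1, chr12:109540746-109541045 on the plus strand for Meg3, chr7:143502475-143502774 on the minus strand for Phlda2 and chr6:5383136-5383435 on the plus strand for Asb4.
Dlk1: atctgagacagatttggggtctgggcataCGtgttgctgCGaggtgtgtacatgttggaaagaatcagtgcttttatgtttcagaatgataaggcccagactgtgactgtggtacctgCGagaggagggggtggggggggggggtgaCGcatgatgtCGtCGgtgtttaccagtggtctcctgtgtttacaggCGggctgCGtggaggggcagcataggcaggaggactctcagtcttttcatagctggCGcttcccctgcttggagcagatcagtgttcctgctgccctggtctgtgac
Meg3: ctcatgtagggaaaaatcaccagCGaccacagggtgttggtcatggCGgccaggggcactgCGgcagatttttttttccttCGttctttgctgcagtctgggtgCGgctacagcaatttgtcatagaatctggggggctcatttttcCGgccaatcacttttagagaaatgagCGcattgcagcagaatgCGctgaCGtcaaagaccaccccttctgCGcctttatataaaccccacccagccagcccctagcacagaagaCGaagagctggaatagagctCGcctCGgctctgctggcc
Phlda2: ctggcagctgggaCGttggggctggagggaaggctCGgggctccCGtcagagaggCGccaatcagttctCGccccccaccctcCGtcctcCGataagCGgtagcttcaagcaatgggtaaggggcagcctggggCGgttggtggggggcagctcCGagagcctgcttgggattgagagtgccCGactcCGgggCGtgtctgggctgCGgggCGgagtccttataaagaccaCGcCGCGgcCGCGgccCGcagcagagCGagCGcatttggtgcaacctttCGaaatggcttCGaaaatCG
Asb4: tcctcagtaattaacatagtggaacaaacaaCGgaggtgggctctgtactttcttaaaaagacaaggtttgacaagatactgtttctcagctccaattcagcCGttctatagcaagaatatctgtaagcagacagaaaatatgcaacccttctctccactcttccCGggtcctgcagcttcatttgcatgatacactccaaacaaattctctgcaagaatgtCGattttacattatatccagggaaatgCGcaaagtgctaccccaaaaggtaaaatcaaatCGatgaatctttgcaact

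The Phlda2 window held 26 CG, a number that 16.9% of the 32851 windows of all genes reached. The Meg3 window held 13, reached by 37.9%, and the Dlk1 window 9, reached by 45.8%. The Asb4 window held 6, reached by 56.4%, and the median over all windows was 7. The 6 letters TGCCGC, the core of the motif bound by ZFP57, the zinc finger protein that protects imprints, were looked for on both strands. The Meg3 window held them 1 time, on the minus strand from base 61, and the other 3 windows shown did not hold them. Windows were listed for 33 members, 54 windows in all, and 22.2% of these held the letters, against 11.6% of all windows; the letters themselves hold a CG, member windows had a median of 13.5 CG against 7 over all windows, and windows of 1 gene can overlap, so nothing is read from the 2 shares. A match is a description of these letters and not a binding site. H19, Impact, Sgce, Cdkn1c, Nap1l4, Peg10 and Kcnq1 are named only.

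The first comparison set the 4 knockdown arrays against the 2 control arrays, with the day in the fit, and asked which genes depend on Dazl. Levels are log2 intensities with each array's 75th percentile set to 0, from the brightest probe of a gene; a difference of 1 is 2-fold. With limma, none of the 40 members passed an adjusted p of 0.05, where 0% of all genes did. Dazl itself ranked 1 by p among all genes and was 19.7-fold lower in knockdown cells, yet its adjusted p was 0.0864. The lack of calls therefore does not show that the members were unchanged. At an unadjusted p of 0.05, 2 members were higher in knockdown cells, Dlk1 and Meg3, where 5.11% of all genes were, and 6 were lower, Calcr, H19, Inpp5f, Nap1l5, Nnat and Phlda2, where 4.84% of all genes were. That is 5% of the members on the higher side and 15% on the lower side; with normexp background correction in place of the scanner's own, 1 member was higher and 2 were lower. Set against the control of the same day, 5 members were higher in all 4 pairs of arrays, Dlk1, Meg3, Kcnq1ot1, Slc22a18 and Slc38a4, against 16.3% of all genes, and 12 were lower in all 4 pairs, against 17% of all genes.

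Meg3 and Dlk1 had the largest upward differences after Asb4, which is described with the hairpins. Meg3, a maternally expressed long non-coding RNA, had log2 levels of 4.85 with hairpin 2 and 5.05 with hairpin 1 at day 12, and of 4.997 and 5.09 at day 9, against 3.796 in control cells at day 12 and 4.36 at day 9. All 4 knockdown arrays lay above both control arrays. The fitted difference was 0.92 ± 0.17 (SE), which is 1.89-fold higher in knockdown cells, with an unadjusted p of 0.00157 and an adjusted p of 0.219, the lowest of any member in this comparison. In all, 5 probes of Meg3 passed the filter, and their fitted differences ranged from 0.46 to 0.96.

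Dlk1, the paternally expressed neighbour, encodes a membrane protein of the Notch ligand type. Its levels were 2.29 with hairpin 2 and 1.85 with hairpin 1 at day 12, against 1.32 in control cells, and 2.99 and 3.31 at day 9, against 2.80 in control cells. Knockdown arrays were above the control of their own day in 4 of 4 pairs, while the groups overlapped when the days were pooled. The difference was 0.55 ± 0.20 (SE), or 1.47-fold, with an adjusted p of 0.457; it was 0.35 without the control array of day 12, and the second probe gave 0.57. Dlk1 and Meg3 thus had the same sign in every pair, although they are expressed from opposite copies. Further along the same cluster, the non-coding RNAs Rian and Mirg, which are not among the 40, were 0.67 and 0.66 higher in the fit, each in 3 of 4 pairs, and Dio3, a deiodinase gene of the cluster, differed by -0.44, with all 4 pairs below 0.

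Igf2 and H19, the fetal growth factor and the non-coding RNA that share enhancers, pointed in opposite directions. H19 had levels of 0.08 with hairpin 2 and -0.15 with hairpin 1 at day 12, against 1.98 in control cells, and of 0.56 and -0.24 at day 9, against 0.57 in control cells. The control array of day 12 stood apart, and at day 9 hairpin 2 lay at -0.01 from control. The fitted difference was -1.22 ± 0.41 (SE), or 2.32-fold lower in knockdown cells, with an adjusted p of 0.437; without the control array of day 12 it was -0.41. The second H19 probe gave -1.08.

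Igf2 had levels of 4.91 with hairpin 2 and 5.19 with hairpin 1 at day 12, against 4.54 in control cells, and of 5.09 and 5.57 at day 9, against 5.13 in control cells. It was higher in 3 of 4 pairs, and the groups overlapped. The difference was 0.35 ± 0.20 (SE) with an adjusted p of 0.620; it was 0.199 without the control array of day 12, and the second Igf2 probe gave 0.36. Igf2r, the maternally expressed receptor that takes IGF2 into the lysosome, differed by -0.18, and Airn, the non-coding RNA antisense to it, by -0.91 at a dim signal of 9.19 to 13 in knockdown cells, against 24.9 and 15.7 in control cells.

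Within the Kcnq1 cluster, Phlda2, a maternally expressed gene that limits placental growth, was the member with the smallest unadjusted p. Its levels were 2.42 with hairpin 2 and 2.27 with hairpin 1 at day 12, against 2.62 in control cells, and 2.74 and 2.68 at day 9, against 3.32 in control cells. It was lower in 4 of 4 pairs, by -0.44 ± 0.15 (SE), with an adjusted p of 0.437 and a second probe at -0.55, and by -0.27 without the control array of day 9. Kcnq1ot1, the paternally expressed antisense RNA that silences the cluster in cis, had levels of -0.46 with hairpin 2 and -0.51 with hairpin 1 at day 12, against -0.77 in control cells, and of -0.18 and -0.17 at day 9, against -0.19 in control cells. It differed by 0.15 ± 0.14 (SE), by 0.01 without the control array of day 12 and by 0.29 without that of day 9, and at day 9 the hairpins stood 0.004 and 0.02 above control. Cdkn1c, the maternally expressed inhibitor of cyclin-dependent kinases, had levels of 2.65 with hairpin 2 and 3.11 with hairpin 1 at day 12, against 2.95 in control cells, and of 2.63 and 3.38 at day 9, against 3.26 in control cells. Control cells lay between the hairpins on both days, and the difference was -0.16 ± 0.26 (SE). Over the 9 members of the cluster, 5 differed upward and 4 downward in the fit, with a median of 0.01.

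**Figure D1:**
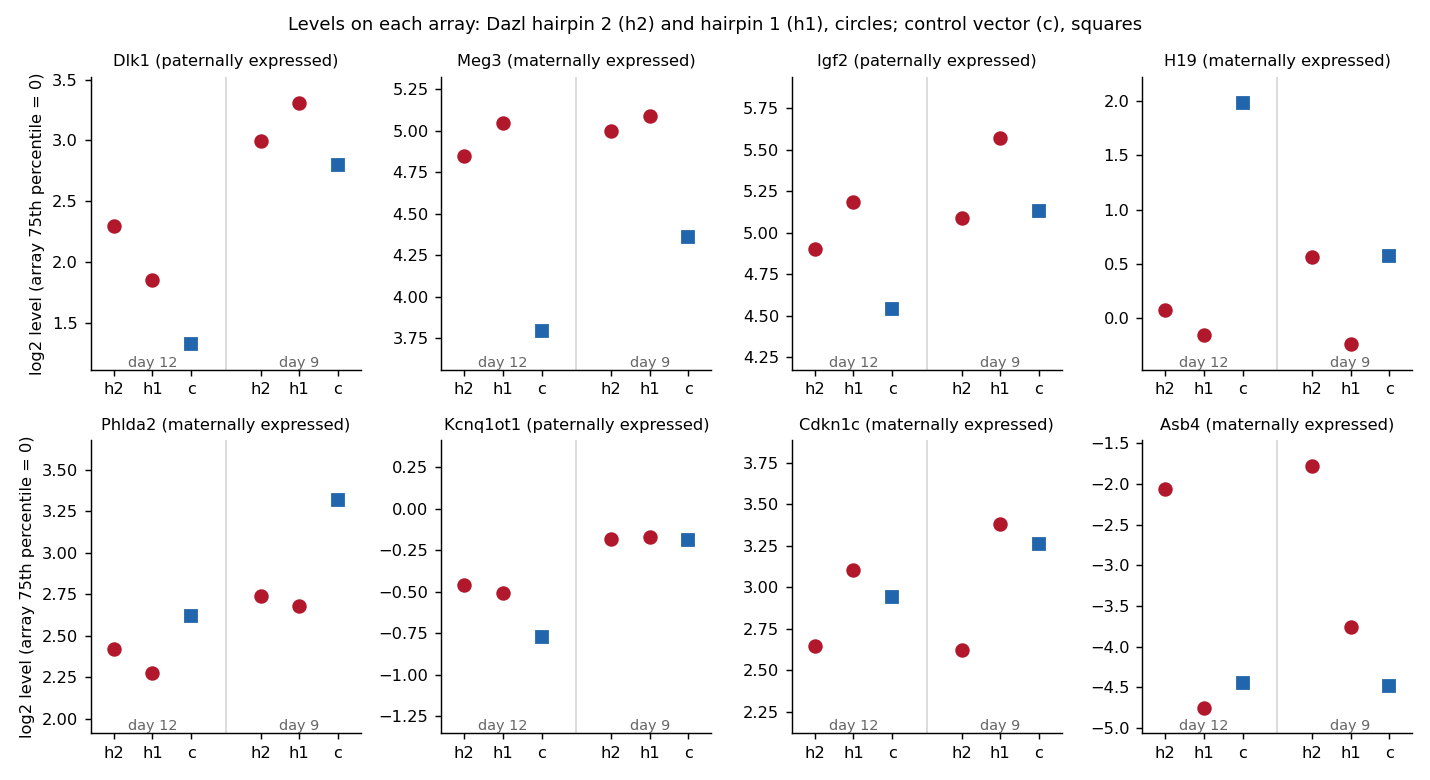
Log2 levels of 8 members on each of the 6 arrays, with each array's 75th percentile at 0; circles are knockdown arrays (h2, hairpin 2; h1, hairpin 1), squares are control arrays (c), day 12 left of day 9. Meg3 was at 4.85 to 5.09 on the knockdown arrays, against 3.796 and 4.36 on the control arrays, and H19 was highest on the control array of day 12.

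The remaining members past the unadjusted threshold were dim or lay outside the large clusters. Nnat, a paternally expressed gene of neural and endocrine tissue, had levels of -5.57 with hairpin 2 and -5.75 with hairpin 1 at day 12, against -5.03 in control cells, and of -5.95 and -6.11 at day 9, against -5.55 in control cells. It was lower by -0.56 ± 0.14 (SE), in 4 of 4 pairs. Nap1l5, a paternally expressed gene of the nucleosome assembly protein family, had levels of -5.69 and -5.93 at day 12, against -5.36 in control cells, and of -6.58 and -6.83 at day 9, against -5.96 in control cells, with hairpin 2 before hairpin 1. Its difference was -0.60 ± 0.17 (SE), and its probe was not well above background on the array of hairpin 1 at day 9.

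Calcr, the calcitonin receptor gene, had levels of -6.73 with hairpin 2 and -6.01 with hairpin 1 at day 12, against -5.63 in control cells, and of -5.90 and -6.35 at day 9, against -4.91 in control cells. All 4 knockdown arrays were below both control arrays, by a fitted -0.98 ± 0.27 (SE) with an adjusted p of 0.359; its probe was not well above background on the array of hairpin 2 at day 12. With normexp background correction in place of the scanner's own, the differences of Nnat, Nap1l5 and Calcr turned to 0.11, 0.21 and 0.11, so the direction of these dim members depended on the background correction. Inpp5f, a phosphoinositide phosphatase gene with a paternally expressed variant in brain, had levels of -0.18 with hairpin 2 and -0.38 with hairpin 1 at day 12, against 0.26 in control cells, and of -0.15 and -0.42 at day 9, against -0.02 in control cells. It was lower by -0.40 ± 0.16 (SE), with all 4 knockdown arrays below both control arrays and an adjusted p of 0.497; without the control array of day 12 it was -0.26.

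**Figure D2:**
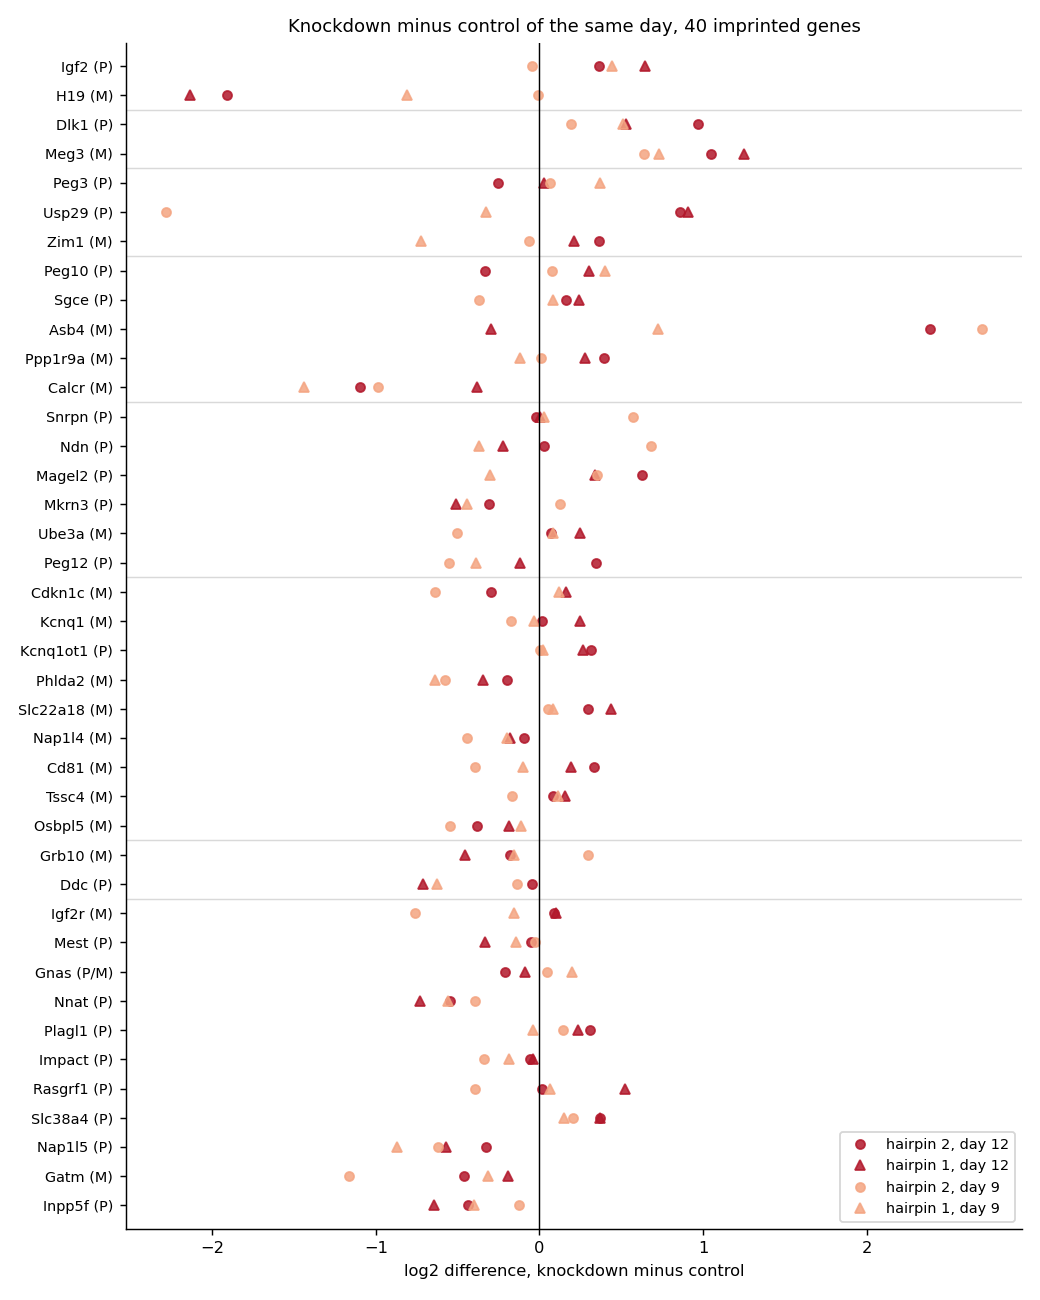
Difference between each knockdown array and the control array of its day, on the log2 scale, for all 40 members; lines separate clusters, the genes below the last line lie alone, and P and M mark paternally and maternally expressed genes. Dlk1 and Meg3 had all 4 points right of 0, H19 and Calcr all 4 left of 0, and Asb4 had both points of hairpin 2 above 2.

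The 20 members not given array by array differed by -0.31 for Osbpl5 to 0.27 for Slc38a4, 11 upward and 9 downward, with no unadjusted p under 0.0856. Among them were Mest, a gene of the mesoderm, at -0.14, the ubiquitin ligase gene Ube3a at -0.03, and the transcription factor gene Plagl1, itself a regulator of other imprinted genes, at 0.16. The Snrpn cluster, whose loss causes Prader-Willi syndrome in humans, had 3 of its 6 members upward and 3 downward. On the array of hairpin 2 at day 9, Snrpn was 0.57 and Ndn 0.68 above the control of that day, while hairpin 1 on the same day gave 0.03 and -0.37.

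Probes of 1 gene did not always point the same way. Of the 21 members with several probes past the filter, 16 had all their probes on 1 side of 0 in this comparison and 5 did not: Peg3, Plagl1, Sgce, Slc38a4 and Ube3a. For Slc38a4, an amino acid transporter gene, the brighter probe gave 0.27 and the other -0.28, and each held in all 4 pairs, so no direction is given for the gene.

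**Figure D3:**
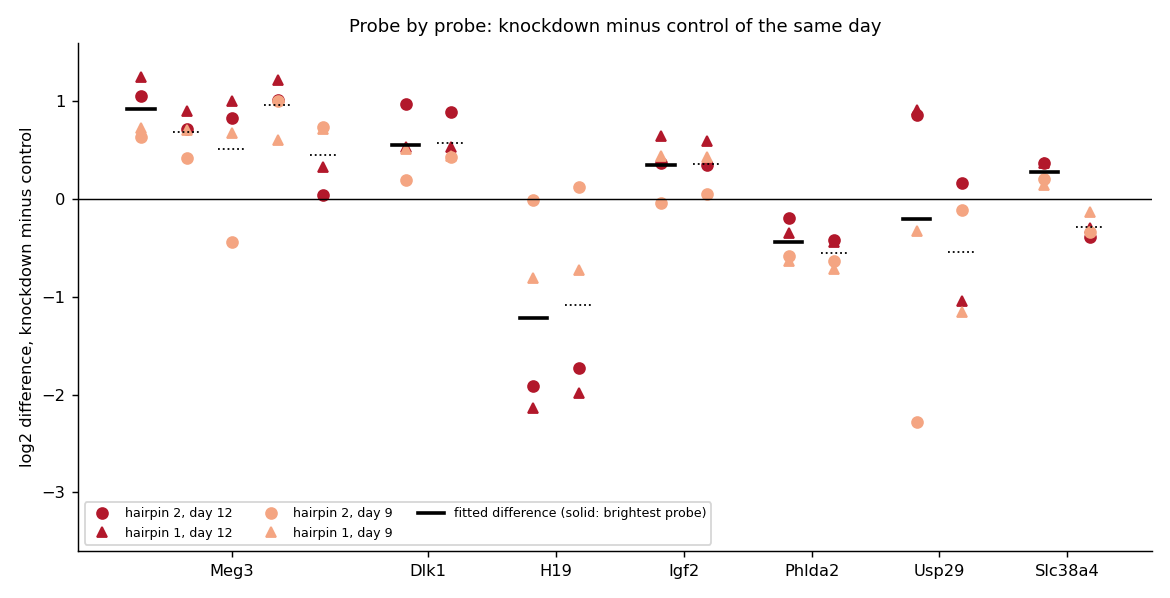
Knockdown minus control of the same day for every probe past the filter, for 7 members; each column of points is 1 probe and bars are fitted differences, solid for the brightest probe and dotted for the others. The 5 probes of Meg3 lay between 0.46 and 0.96 in the fit, and those of Slc38a4 lay on opposite sides of 0.

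Paternally and maternally expressed members were then set side by side. Both classes hold genes imprinted mainly in placenta, brain or 1 transcript, and whether these are imprinted in the cells used was not tested. The median fitted difference was 0.03 over the 21 paternally expressed genes, 12 upward and 9 downward, and -0.09 over the 18 maternally expressed genes, 7 upward and 11 downward, beside -0.001 over all genes. Over all 40 members it was -0.02. Pair by pair, the paternal median exceeded the maternal one in 1 of 4 pairs, that of hairpin 2 at day 9, at -0.03 for paternally and -0.28 for maternally expressed genes. The other 3 pairs had the maternal median higher, by 0.03 to 0.10. Both ends of the range were maternally expressed: Asb4 at 1.38, or 0.85 and 0.91 without the array of hairpin 2 at day 12 or at day 9, and H19 at -1.22.

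**Figure D4:**
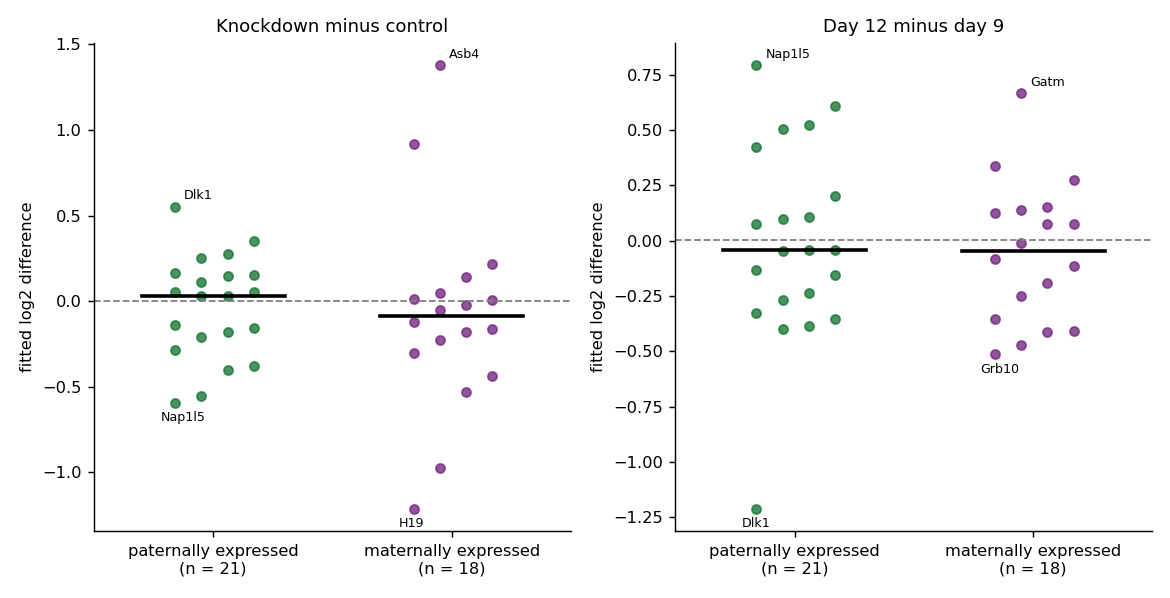
Fitted log2 differences of the members by parental class; each point is 1 gene, thick bars are medians and the dashed line is the median of all genes. In the knockdown comparison the medians were 0.03 for paternally and -0.09 for maternally expressed genes, and in the day comparison both were within 0.05 of 0.

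Genes outside the 40 that act on imprints or are listed as imprinted themselves were counted from fixed lists. Of 15 regulators 14 passed the filter, 3 with an upward and 11 with a downward difference, and none passed the adjusted threshold; over all 20220 genes, 10158 had a downward difference. Zfp57 was 0.92 ± 0.19 (SE) higher in knockdown cells, in 4 of 4 pairs, with levels of 0.13 and 0.63 at day 12, against -0.41 in control cells, and of 0.64 and 0.69 at day 9, against -0.38 in control cells, and an adjusted p of 0.250. The DNA methyltransferase genes Dnmt3a and Dnmt3b, which lay methylation down, differed by -0.55 and -0.57, and Smchd1 and Hells, chromatin proteins of the silent copy and of methylation, by -0.57 and -0.49, each at an unadjusted p under 0.05, where 4.84% of all genes were lower, and each in 4 of 4 pairs. Dnmt1, the maintenance methyltransferase gene, differed by -0.22. Of 41 further genes listed as imprinted 29 passed the filter, 16 upward and 13 downward, and none passed the adjusted threshold. Whether each of them, Rb1 included, is imprinted in mouse was not tested. Qpct, Dhcr7 and Rian were higher at an unadjusted p under 0.05, where 5.11% of all genes were. Airn, Zim2, Rb1, Copg2 and Klf14 were lower, where 4.84% of all genes were. Zim2 and Klf14 were dim, with signals of 2.11 to 17 and 10.6 to 14.8.

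The same fit compared day 12 with day 9. None of the 40 members passed an adjusted p of 0.05 in limma, where 0.148% of all genes did. At an unadjusted p of 0.05, Gatm, Nap1l5, Nnat and Peg12 were higher at day 12, where 7.27% of all genes were, and Dlk1, Grb10, Kcnq1ot1 and Phlda2 were lower, where 4.78% of all genes were. Each direction held 10% of the members. All 3 vectors were higher at day 12 for 9 members, against 20.6% of all genes, and lower for 10 members, against 19.6% of all genes. The slide and its scan cannot be told apart from the day, since each day was run on a slide of its own.

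Dlk1 had the largest difference of any member between the days. Its levels, given above, were lower at day 12 by -0.70 with hairpin 2, -1.46 with hairpin 1 and -1.48 in control cells. All 3 arrays of day 12 lay below all 3 of day 9. The fitted difference was -1.21 ± 0.19 (SE), with an unadjusted p of 0.000738 and an adjusted p of 0.100; the second probe gave -1.26. Meg3, next to it, was lower by -0.25 ± 0.16 (SE), and its 5 probes did not all point the same way.

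Phlda2 was lower at day 12 by -0.47 ± 0.14 (SE) and Kcnq1ot1 by -0.40 ± 0.13 (SE), each in 3 of 3 vectors. Grb10, a maternally expressed adaptor that dampens insulin and growth factor signalling, had levels of 1.71 with hairpin 2, 1.43 with hairpin 1 and 1.89 in control cells at day 12, against 2.44, 1.99 and 2.14 at day 9. Its difference was -0.51 ± 0.19 (SE), while its dimmer probes gave -0.07 and -0.19 and the mean of its probes -0.26. Igf2 was also lower in 3 of 3 vectors, by -0.39 ± 0.19 (SE).

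Nap1l5 was higher by 0.79 ± 0.16 (SE) with an adjusted p of 0.130, and Nnat by 0.42 ± 0.14 (SE), but with normexp background correction they stood at -0.19 and -0.25. Peg12, a paternally expressed gene of the Snrpn cluster, had levels of -0.19 with hairpin 2, -0.66 with hairpin 1 and -0.54 in control cells at day 12, against -1.31, -1.14 and -0.75 at day 9. Its difference was 0.61 ± 0.20 (SE). Gatm, which encodes the first enzyme of creatine synthesis, had levels of -3.62 with hairpin 2, -3.35 with hairpin 1 and -3.16 in control cells at day 12, against -4.71, -3.87 and -3.55 at day 9. Its difference was 0.67 ± 0.25 (SE), 0.39 without the array of hairpin 2 at day 9, and 0.03 with normexp. H19 differed by 1.41 in control cells, by -0.49 with hairpin 2 and by 0.09 with hairpin 1.

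**Figure D5:**
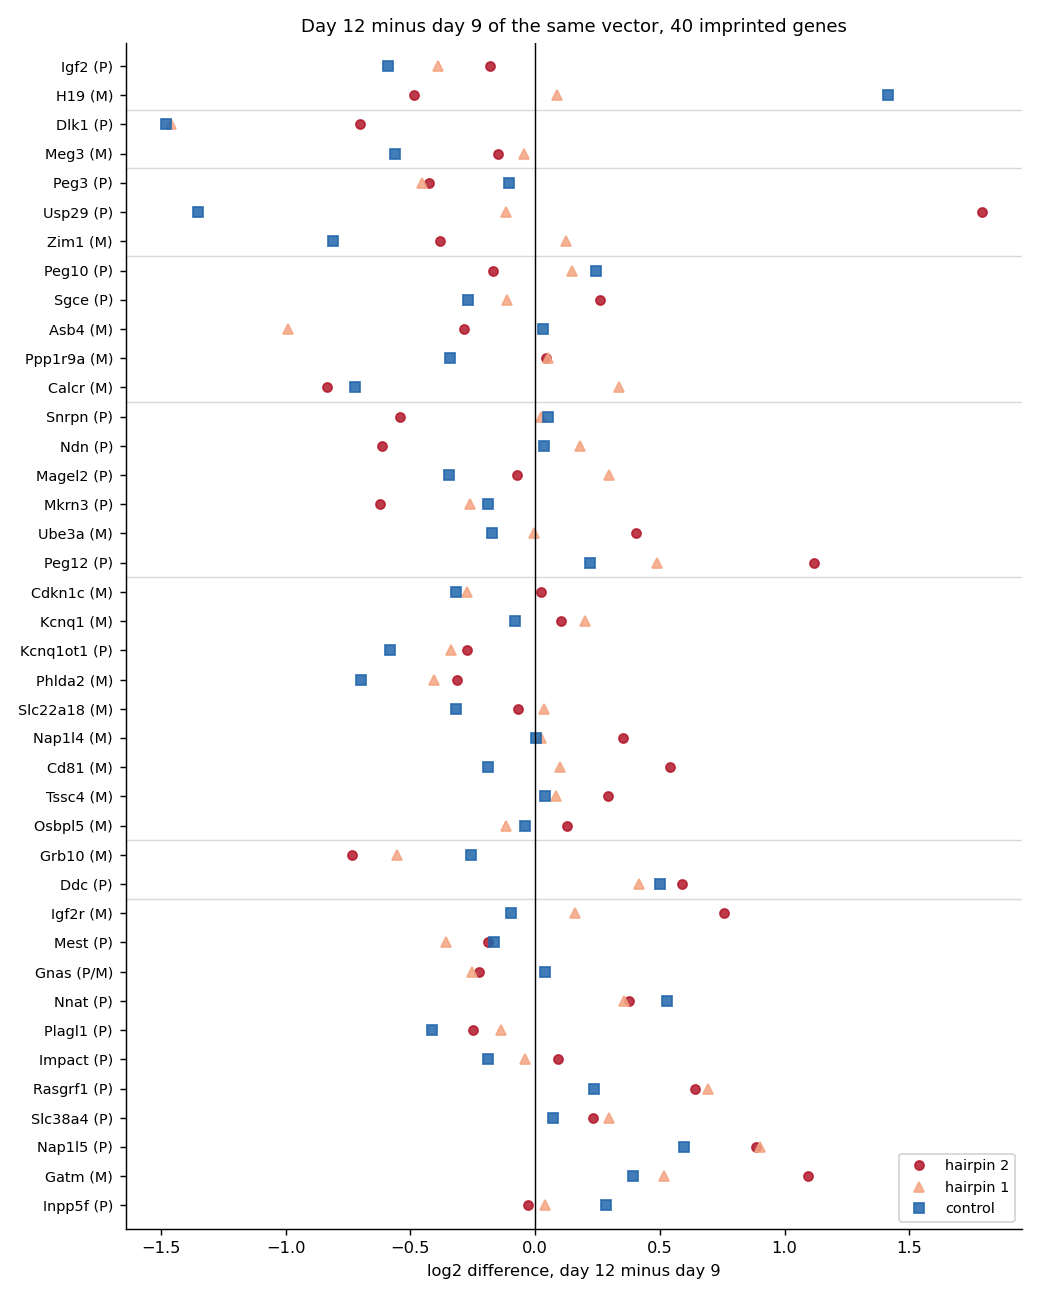
Day 12 minus day 9 for each vector on the log2 scale, for all 40 members; circles are hairpin 2, triangles hairpin 1 and squares control, with lines between clusters. Dlk1 lay at -0.70 to -1.48, and the point of H19 in control cells, at 1.41, stood apart from those of the hairpins.

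The medians of the 2 parental classes were alike in size in this comparison, at -0.04 over the paternally and -0.05 over the maternally expressed genes, beside 0.003 over all genes. Across the 20 members not given array by array, 7 differed upward and 13 downward, between -0.36 for Mkrn3 and 0.27 for Igf2r. Among the 41 further genes listed as imprinted, 6 of the 29 that passed were higher at day 12 at an unadjusted p under 0.05, where 7.27% of all genes were. They were Zim2, Tspan32, Pon3, Tnfrsf23, Tnfrsf22 and Ampd3. Dhcr7 was lower, where 4.78% of all genes were, and none of the 29 passed the adjusted threshold. Zim2 and Tnfrsf23 were dim, with signals of 2.11 to 17 and 5.65 to 13.5.

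Whether the knockdown effect differed between the days was tested in a fit with 4 groups, in which the lone control array of a day is taken to vary like the knockdown pairs. None of the 40 members passed an adjusted p of 0.05 in limma, where 0% of all genes did. At an unadjusted p of 0.05 there was no member with a larger value at day 12, where 0.91% of all genes were, and 1 with a smaller value, H19, where 0.816% of all genes were. H19 differed by -2.02 between knockdown and control cells at day 12 and by -0.41 at day 9, a difference of -1.61 ± 0.54 (SE) with an adjusted p of 0.99975. Usp29 had a difference of 2.19 ± 1.096 (SE), which was 1.19 with the mean of its 2 probes and 1.21 without the array of hairpin 2 at day 9, and no direction is given for it. Its levels were -1.82 with hairpin 2 and -1.78 with hairpin 1 at day 12, against -2.68 in control cells, and -3.61 and -1.66 at day 9, against -1.33 in control cells. The 9 members of the Kcnq1 cluster all had a larger value at day 12, by 0.05 to 0.51, as did 28 of all 40 members and 11093 of all 20220 genes, and these values share the control arrays.

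The hairpins were compared directly, hairpin 2 minus hairpin 1, over the 2 days. None of the 40 members passed an adjusted p of 0.05, where 0.0692% of all genes did. Asb4, Ddc and Ndn were higher with hairpin 2 at an unadjusted p of 0.05, where 6.25% of all genes were, and Cdkn1c, Gatm, Peg10 and Rasgrf1 were lower, where 5.42% of all genes were. Asb4, a maternally expressed gene of the Peg10 cluster that encodes a part of ubiquitin ligase complexes, had levels of -2.07 at day 12 and -1.78 at day 9 with hairpin 2, against -4.75 and -3.76 with hairpin 1; control cells were at -4.45 and -4.48. Both arrays of hairpin 2 stood apart from the other 4. The difference was 2.33 ± 0.27 (SE), or 5.03-fold, with an unadjusted p of 0.000159 and an adjusted p of 0.0668, and it passed the adjusted threshold under other settings given in the closing section. A second Asb4 probe was not well above background on any array.

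Among members that were lower with hairpin 2, Cdkn1c differed by -0.61 ± 0.18 (SE). Peg10, a paternally expressed gene derived from a retrotransposon and needed for the placenta, had levels of -4.50 at day 12 and -4.33 at day 9 with hairpin 2, against -3.87 and -4.01 with hairpin 1, a difference of -0.48 ± 0.18 (SE), and of -0.297 without the array of hairpin 2 at day 12. Rasgrf1, an exchange factor for Ras, had levels of -4.26 and -4.90 with hairpin 2, against -3.75 and -4.44 with hairpin 1, a difference of -0.48 ± 0.19 (SE), and Gatm differed by -0.56 ± 0.22 (SE). Peg10, Rasgrf1 and Gatm were dim, and with normexp background correction each stood at 0.21 instead. Ndn, a growth suppressor of the Snrpn cluster, had levels of -0.31 at day 12 and 0.31 at day 9 with hairpin 2, against -0.56 and -0.74 with hairpin 1, a difference of 0.65 ± 0.24 (SE) that ranged from 0.29 to 1.01 when single arrays were left out. Ddc, which encodes the enzyme that makes dopamine and serotonin, had levels of 1.14 and 0.55 with hairpin 2, against 0.47 and 0.06 with hairpin 1, a difference of 0.58 ± 0.16 (SE), and its second probe gave 0.68. Of the 8 trophectoderm markers, 7 were lower with hairpin 2, where 9578 of all 20220 genes were. At an unadjusted p under 0.05, 5 were lower, where 5.42% of all genes were. The transcription factor gene Cdx2, at -2.26, passed the adjusted threshold narrowly, with an adjusted p of 0.0499 in limma. Over all genes 14 were called between the hairpins in this fit, and 1 with quantile normalization. Of the 13 fibroblast markers, 10 were higher with hairpin 2 and 3 lower. At an unadjusted p under 0.05 in limma, 6 were higher, where 6.25% of all genes were, and 1 lower, where 5.42% were. The 10 endoderm markers were split, 5 higher and 5 lower, with 3 and 4 at that p. Of 5 neural markers 4 were higher, and of 12 germ cell markers 6 were. The part of all these cell types in the members' differences was not tested. The 2 probes of Usp29 gave -1 and 1.12, so no direction is given for it.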

How the data were processed

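Total RNA of 6 samples was hybridised to Agilent 1-colour arrays, 1 array per sample. Per the file headers, the deposited scanner files hold spot intensity values from Agilent Feature Extraction 9.1.3.1, detrended and background-subtracted, with surrogate values for dim spots and no scaling between arrays. The authors' deposited processed table holds a ratio, the background-subtracted signal over a constant of its array, with each column's median at 1 (41529 entries, each matched to 1 spot) and 8.01% to 10.1% of entries at a small positive floor; it served as an alternative. A quality score per spot in the deposited files, whose making is not given in the sources used here, served only for matching.

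The processed signals were taken to log2, the 75th percentile over probes was set to 0 on each array (a signal of 629 to 745), and probes well above background on at least 2 arrays and without flags were kept (30190 of 41174 probes). The brightest probe stood for a gene. Names came from the accession or symbol through RefSeq's gene table for GRCm38.p6 or from the array's annotation. Fits used limma 3.58.1 in R 4.3.3 with Benjamini-Hochberg adjustment over 20220 genes, two-sided, with a threshold of 0.05: day and knockdown; 4 groups; day and vector. The fit was tested on simulated data. The number of arrays limits the precision.

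Whether the vectors pair the arrays across days was checked by correlating deviations from the day's mean across genes. The same vector gave r of 0.38, 0.54 and 0.26, and different vectors -0.34 to -0.02. Deviations from a shared mean cancel, so the negative values follow in part from the centring. The fit with day and knockdown took the arrays of a vector as separate, so its p-values make no allowance for this pairing. Vectors kept the same positions on both slides, 2 for control, 3 for hairpin 1 and 4 for hairpin 2, and the position cannot be told apart from the vector. Array-by-array values were given for members past an unadjusted p of 0.05 or 2-fold apart in any comparison and for the pairs Igf2 and H19, Dlk1 and Meg3, Kcnq1ot1 and Cdkn1c. The alternatives tried were quantile normalization, normexp background correction, the authors' table, 2 other filters, the mean of probes, a trended robust prior, the vector as a replicate block and leaving out each array. The members and lists were chosen with earlier results of these data known.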

Additional observations from a re-analysis of the deposited data

Results flagged for a closer look

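In 2 of the 40 members, 1 of the 4 knockdown arrays stood far from the other 3, with a gap to its neighbour, as a share of the whole range, above Dixon's critical value for 4 samples. For 4 draws from 1 population chance alone gives this in about 1 of 20 groups. Here the 4 arrays are 2 hairpins on 2 days and the members share them, so 2 of 40 cannot be judged against that rate. The share over all genes was not computed. Both times the array that stood apart was that of hairpin 2 at day 9. That array was also the extreme one for many other members under the critical value, such as Igf2r and Tssc4, with ratios of 0.794 and 0.765. The array was the highest for Snrpn, with a ratio of 0.959 and a level of 1.56, against 1.02 to 1.04 on the other knockdown arrays, and the lowest for Usp29, with a ratio of 0.916 and a level of -3.61, against -1.82 to -1.66. The second probe of Snrpn had a signal of 1310 on that array, against 738 to 822 on the other knockdown arrays. The second probe of Usp29 was not low there: its signal was 177, against 74.2 to 159 on the other knockdown arrays.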

How the results depend on the processing

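No member passed the adjusted threshold in the knockdown or day comparison, or in the difference between days, under any alternative run, and the replicate block on the vector left these 3 counts at 0. Without a control array the difference between days could not be fitted, and the block was not run for the hairpins, since the vector is what they differ in. The exception was Asb4 between the hairpins: 1 member was called with normexp background correction, with probes well above background on all arrays and with the trended robust prior, and the count was 0 to 1 when single arrays were left out. The adjusted p of Asb4 over all alternatives was 2.14e-06 to 0.290. Of 405 recomputed values of single members, 387 kept their direction and call, 7, all Asb4, passed the threshold, and 11 turned round. With normexp correction the knockdown difference turned to 0.112 for Calcr, 0.21 for Nap1l5 and 0.113 for Nnat, the day difference to -0.192 for Nap1l5 and -0.251 for Nnat, and the hairpin difference to 0.207 for Gatm, 0.21 for Peg10 and 0.207 for Rasgrf1; that correction also moved the median of all genes to 0.116 for knockdown, -0.115 for day and 0.177 for hairpins. Usp29 between the hairpins turned to 0.061 with the mean of probes and ranged from -2.262 to 0.262 when single arrays were left out. Cdkn1c in the knockdown comparison ranged from -0.312 to 0.013 when single arrays were left out, and H19 from -2.02 to -0.41. The median knockdown difference of the members was -0.15 to 0.043 when single arrays were left out, and that of paternally minus maternally expressed genes -0.119 to 0.166, so its sign rested on the control array of day 9. For day, the same contrast of the classes, 0.006 in the fit reported, was -0.13 with normexp, 0.101 with the mean of probes, 0.176 without the 10 genes imprinted mainly in placenta, brain or 1 transcript, and -0.072 to 0.112 when single arrays were left out. Over all genes, 0 were called for knockdown, 30 for day, 0 for the difference between days and 14 for the hairpins. The block gave 20, 328 and 63 for the first 3, and over all alternatives the hairpin count was 0 to 819. The block gives each hairpin its own term, so the spread between hairpins is left out of its error. For Asb4 in the knockdown comparison the SE was 0.856 in the fit reported and 0.232 with the block. The cause of the moves between alternatives was not tested. Dim members, and the 3 not well above background on some array, are limited by their signal over background.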
